A study of Mus musculus with 2 samples.

Results

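The cytosolic ribosome was represented on these arrays by 42 probes for 28 genes, out of 29922 gene probes and 16637 named genes. They were chosen by symbol alone, as names that begin with Rpl or Rps followed by a digit, Rplp followed by a digit, or the name Rpsa, with the S6 kinase genes left out. Of the 28 genes, 15 encode canonical proteins of the large (60S) subunit, 7 encode canonical proteins of the small (40S) subunit, and 5 are paralogues. The last, Rps19bp1, encodes a partner that binds Rps19 and is no subunit of the ribosome. The other 55 of the 77 canonical genes listed for comparison were not analysed here, because no probe carried their symbol.

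The cells were mouse embryonic fibroblasts labelled as an Xbp1 knockout cell line, and both groups share that genotype. The day 0 sample was taken at confluence, and the day 3 sample after 72 h of induced adipogenesis in medium with troglitazone at 5 µM, insulin at 10 µg/ml, DXM at 5 µM and IBMX at 0.25 mM. Each day was 1 array, so no difference has a replicate check, no test was possible, and every count below rests on size alone. The comparison asks how these cells changed over the first 72 h of induction. No array of cells that keep Xbp1 was analysed here, so nothing below bears on the deletion.

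The ribosome joins amino acids into protein, and nearly all of its proteins are needed in equal number, so their messenger RNAs are abundant in every growing cell. Most of these mRNAs start with a C followed by a run of pyrimidines, the 5′ terminal oligopyrimidine (TOP) tract, through which the kinase complex mTORC1 and the RNA-binding protein Larp1 control their translation. A fibroblast that enters adipogenesis passes from proliferation to differentiation, and the demand for new ribosomes is known to follow growth.

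RefSeq promoters were matched for 24 of the 28 genes (GRCm38.p6). The 30 bases around the annotated start, 15 on each side, held an unbroken run of at least 8 C or T letters in 11 of these 24 genes. In Rpl31, Rpl4 and Rps27l, which are among the 11, the run lay wholly before the annotated start. Counted by start site, that was 11 of 31 ribosomal protein starts (35.5%) against 12% of all 32851 starts in the table. The windows below show the run in capitals, read 5′ to 3′ on the gene's strand, for 7 genes that hold a long run at the start, and then for Rps19 and Rplp0, the genes with the largest differences in each direction, whose longest runs were 7 and 5 letters. They are shown because the tract is the sequence through which the translation of these mRNAs is controlled. Translation was not measured. The limit of 8 letters was set here, so a shorter run does not show that a tract is absent.
Rpl27a (chr7:109519180-109519209, plus strand): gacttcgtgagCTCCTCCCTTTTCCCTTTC
Rpl35 (chr2:39005117-39005146, minus strand): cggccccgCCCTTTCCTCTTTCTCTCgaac
Rpl14 (chr9:120571502-120571531, plus strand): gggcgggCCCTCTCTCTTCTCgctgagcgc
Rpl28 (chr7:4792950-4792979, plus strand): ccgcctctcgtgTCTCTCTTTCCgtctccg
Rpl38 (chr11:114668565-114668594, plus strand): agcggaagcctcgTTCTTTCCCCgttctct
Rps27 (chr3:90213634-90213663, minus strand): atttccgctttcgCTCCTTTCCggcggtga
Rps9 (chr7:3704026-3704055, plus strand): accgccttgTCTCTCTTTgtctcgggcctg
Rps19 (chr7:24884898-24884927, plus strand): gagggagcggggtgtggagggCTCTCCCac
Rplp0 (chr5:115559452-115559481, plus strand): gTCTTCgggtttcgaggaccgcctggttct
Where a gene had several annotated starts, as Rps19 did with 3, the start with the longest run is shown, which for Rps19 is the most downstream. The run was longest in Rpl27a, at 19 letters, and Rpl35, at 18. Among the 300 bases from 250 before to 50 after the start, the letters CCGGAAG, the core bound by ETS family factors, were found on either strand in 11 of 31 ribosomal protein promoters (35.5%) in 8.86% of all promoters and in 12.7% of those of genes named on the array. The E-box CACGTG, to which Myc binds, was found in 3 of 31 (9.68%), in 7.15% of all promoters and in 8.54% of those of genes on the array. These are matches of letters, and binding was not measured.

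The day 3 array was brighter as a whole. Its gene probes had a median deposited intensity of 166, against 78 on the day 0 array, and empty spots had a median of 0 on both. The shift was not even: probes with a mean log2 intensity of 7 to 8 differed by a median of 0.95 on the log2 scale, and those of 12 to 13 by 0.39. Quantile normalization left medians of -0.0084 and -0.026 in those ranges, but 0.37, 0.27 and -0.13 in the 3 dimmest ranges examined, from 4 to 7, where 5 of the 42 ribosomal protein probes lay. The probes of Rpsa, Rpl35 and Rpl39l were dimmer still and lay below the ranges examined. Xbp1 itself (probe mMC022331) had normalized signals of 20936 and 13561, a log2 difference of -0.63, but the probe's place relative to the deletion is not given here, so this signal does not check the genotype. All 11 fibroblast markers were above the detection threshold on both days (summed signal 275788 on day 0 and 252298 on day 3). Of 8 adipocyte markers only Lpl passed it on either day, with Adipoq, Cd36, Cfd, Cidec, Fabp4, Lep and Plin1 below it on both. The adipocyte markers summed to 8568 and 59603.5. Of 6 macrophage markers 3 passed on day 0 and 2 on day 3, with Ptprc, Adgre1 and Lyz2 below the threshold on both days (sums 1242 and 3901). The part of such cells in the results was not tested, and in bulk RNA a change in cell number and a change in RNA per cell cannot be told apart.

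**Figure D1:**
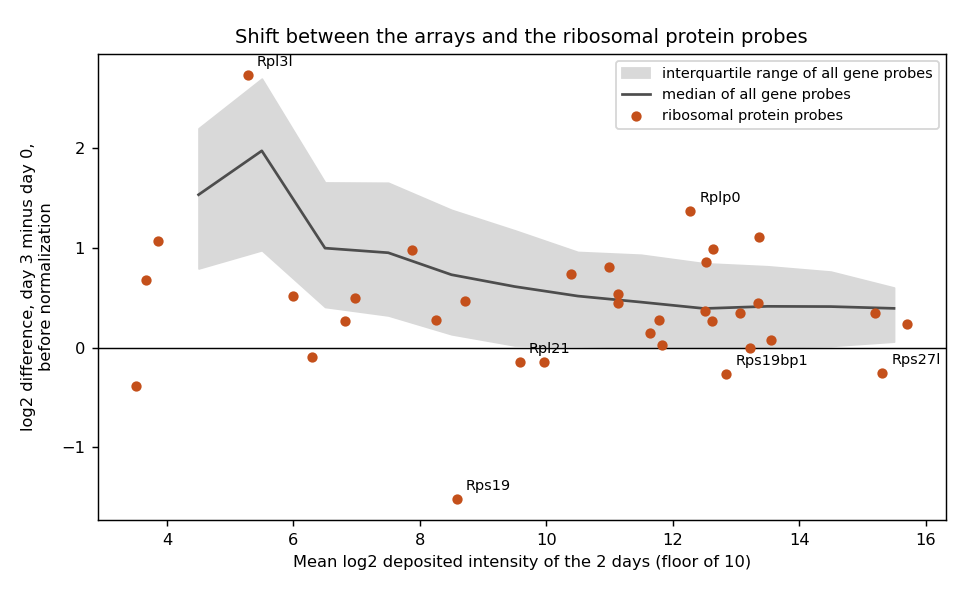
Difference between the days in deposited intensity, before normalization, against mean log2 intensity. The line and band give the median and interquartile range of all gene probes in bins of 1 log2 unit, and each point is 1 ribosomal protein probe under saturation. The shift of all probes is larger among dim than among bright probes, and the Rps19 probe mMR030062 lies well below it.

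Many ribosomal protein signals were at the top of the scanner's range. Saturation was set at a deposited intensity of 65000, which 5 of the 42 probes reached on day 0 (11.9%) and 6 on day 3 (14.3%), against 0.277% and 0.468% of all gene probes. Rpl8, which lies near the catalytic centre of the large subunit, read 65479 on day 0 and 65467 on day 3. Rpl41, the smallest ribosomal protein, read 65473 and 65471. These values are the ceiling, so they give no difference. Rps21, a small-subunit protein, read 65473 on both days. The zinc-finger protein gene Rps27 read 65476 and 65464. One probe of Rps9, a protein near the mRNA entry site (mMR031006), read 65474 and 65466. For these 5 genes the brightest probe gave no difference, and only Rps9 had a further, unsaturated probe. Their normalized signals ran down to 57924, because quantile normalization spreads a plateau of near-equal readings, and those values have no meaning of their own.

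At the other end, 4 genes had no probe above the detection threshold, which was a normalized signal of 122, the median of all gene probes. Rpsa, a small-subunit protein also known as the laminin receptor precursor, had deposited intensities of 13 and 5 by one probe and of -1 and 3 by the other. Rpl35, which lies beside the exit of the peptide tunnel, read 10 and 21. Both are canonical parts of the ribosome, so a dim probe on this array is no measure of a silent gene. The paralogue genes Rpl39l and Rpl3l, known mainly from testis and from muscle, read 3 and 16, and 15 and 100. No fold is given for these 4 genes. The remaining 19 of 28 genes entered the comparison, 1 of them, Rpl23, with a brightest probe saturated on day 3 alone.

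**Figure D2:**
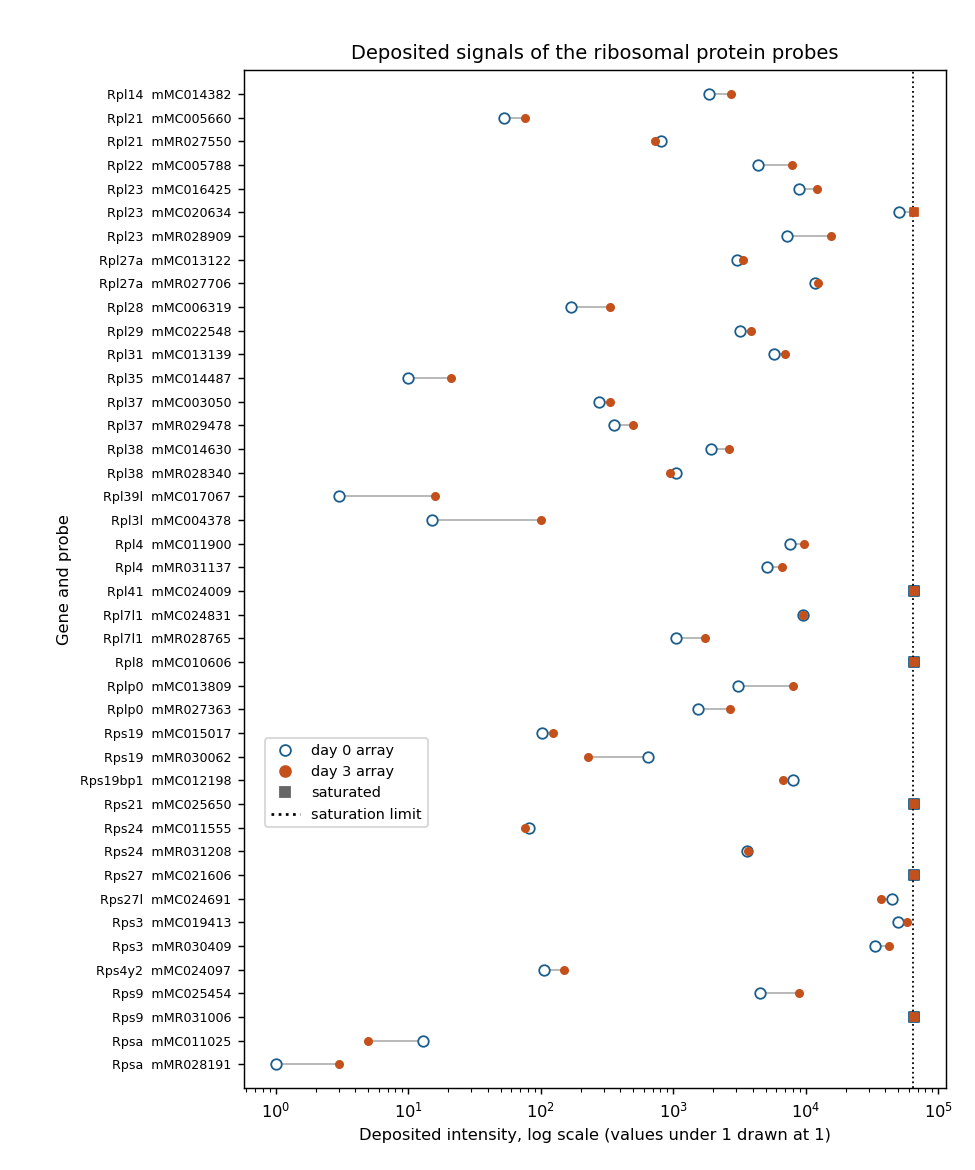
Deposited intensity of each of the 42 ribosomal protein probes on day 0 (open) and day 3 (filled), on a log axis, with squares for saturated readings. The 5 probes at the ceiling on both days and the 2 Rpsa probes near 1 to 13 mark the ends of the range.

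Most of the 19 genes differed little between the days. The median log2 difference, day 3 minus day 0, was -0.18, with a range from -2.26 to 0.96, against a median of 0.03 over all 10629 genes tested. It was below 0 in 14 genes and above 0 in 5. At least 1.5-fold differences were seen in 5 of the 19: Rplp0 was higher on day 3, and Rps19, Rpl21, Rps27l and Rps19bp1 were lower. These 5 probes had the same directions in the deposited intensities. For Rplp0 this is no separate check, because the day 3 array was brighter as a whole. Of 36 member probes under saturation on both days, 28 were higher in deposited intensity on day 3. Among all genes tested 24.2% were at least 1.5-fold higher and 21.1% at least 1.5-fold lower, and 45.2% passed in either direction. The members' 1 higher gene is 5.26% of 19 and their 4 lower genes are 21.1%, so the share that was lower was that of the background. Of the 15 canonical genes among the 19, 1 was higher and 2 were lower. At 2-fold, 0 of the 19 were higher and 1 was lower, against 12.8% and 10.3% of all genes. Among the genes tested that were brighter than their median, where 18.9% were 1.5-fold higher and 18.2% lower, the count was 1 higher and 2 lower of 14 members. The remaining 14 of 19 (73.7%) lay within 1.5-fold, as did 54.8% of all genes tested. The direction of the median depends on the scale: in the deposited intensities without normalization it was 0.28, against 0.67 for all genes.

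The scatter between repeated spots gives a technical yardstick for single probes. Control features printed 4 to 6 times gave an SD of a difference between days of 0.37 to 0.41 from the median feature and of 0.50 to 1.01 when pooled over features. Of the 19 genes, 11 lay within the first and 17 within the second. Variation between cultures, extractions and arrays is not part of this error.

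**Figure D3:**
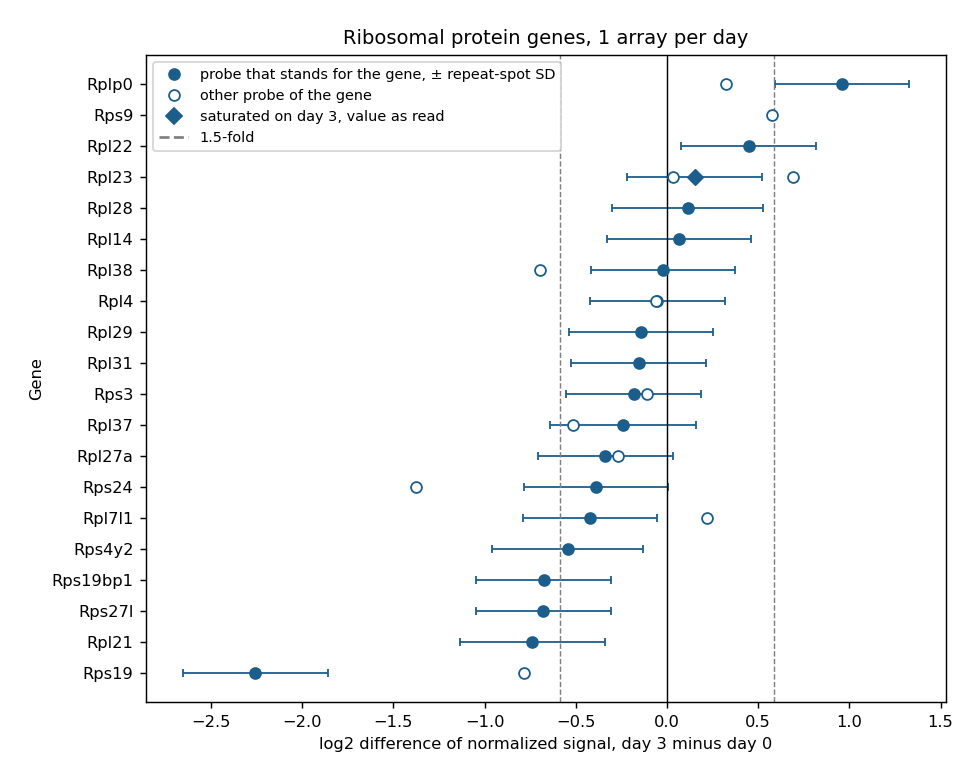
Log2 difference of normalized signal, day 3 minus day 0, for the 19 ribosomal protein genes compared and for the unsaturated probe of Rps9. Filled points are the probe that stands for the gene with its median repeat-spot SD, open points are other probes, the diamond is the Rpl23 probe saturated on day 3, and the dashed lines mark 1.5-fold. Rps19 lies lowest at -2.26 and Rplp0 highest at 0.96.

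The large subunit's only stalk protein on the array had the highest value. Rplp0 anchors the stalk that recruits translation factors to the ribosome. Its probe mMC013809 had normalized signals of 3594.5 on day 0 and 6991 on day 3, a 1.94-fold higher signal (log2 0.96, repeat-spot SD 0.37 from the median feature and 0.90 pooled). Its other probe, mMR027363, read 1850.5 and 2318, or 0.32, which is within its repeat-spot SD (0.40 from the median feature and 0.50 pooled). Both probes were higher on day 3, by different amounts. Rplp1 and Rplp2, its partners in the stalk, were not analysed here.

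Among 11 other large-subunit genes that were compared, Rpl23 at its value as read, 4 were above 0 and 7 below. Rpl22, which binds ribosomal RNA, had signals of 5088 and 6942, a log2 difference of 0.45. Rpl23, which can also bind and inhibit Mdm2, was measured by 3 probes. The brightest had a deposited intensity of 50789 on day 0 and was saturated on day 3, so its size was not measured, and its difference as read, 0.15, is no bound. It turned to -0.24 with median scaling and -0.30 with no normalization, both relative to the shift of all genes. The others gave 0.69 (8350 and 13498) and 0.04 (10422 and 10680). Without this gene the median of the members was -0.21, with the same counts past 1.5-fold.

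Rpl21 was the large-subunit gene with the lowest value. Its signal was 996.5 on day 0 and 597.5 on day 3, 1.67-fold lower (log2 -0.74, SD 0.40 and 1.01 pooled). Its other probe was below the threshold on both days, at 84 and 49. In deposited intensities the brighter probe read 804 and 729, so it was also lower before normalization, on an array that was brighter as a whole.

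The 5 genes nearest to no difference all belong to the large subunit. Rpl38, whose loss in mice impairs the translation of Hox mRNAs, read 2296.5 and 2259 by its brighter probe (-0.02). Its other probe read 1285 and 793 (-0.70). The 2 values lie 0.67 apart. For a single probe the repeat-spot SD was 0.40 here from the median feature, and 0.50 and 1.01 pooled for the brighter and the other probe. Rpl4, a wall protein of the peptide tunnel, read 8825.5 and 8503, and its other probe read 6042 and 5793, with log2 differences of -0.05 and -0.06. Here both probes gave nearly the same small value. Rpl14 read 2229.5 and 2336, a log2 difference of 0.07. Rpl28 read 238 and 257.5 (0.11), and Rpl29 read 3732.5 and 3385 (-0.14). By the probe that stands for each gene, none of these 5 differences reached the repeat-spot SD.

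The remaining large-subunit genes lay a little below 0. Rpl31, which lies near the tunnel exit, had signals of 6724 and 6035, or -0.16. Rpl37 read 469.5 and 397.5 by its brighter probe (-0.24) and 372.5 and 261 by the other (-0.51). Rpl27a read 13585 and 10745 by its brighter probe (-0.34) and 3537.5 and 2934 by the other (-0.27). The probes of each gene had the same direction. Over all 12 large-subunit genes the median was -0.04, with 1 gene 1.5-fold higher and 1 lower, beside 24.2% and 21.1% of all genes tested.

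By the probe that stands for each gene, the small subunit had 3 genes with a measured difference, and all 3 were lower on day 3 (median -0.39). The unsaturated probe of Rps9, which does not stand for its gene, was higher. Rps19, whose human counterpart is mutated in the bone marrow failure Diamond-Blackfan anaemia, had the largest difference of all. Its probe mMR030062 read 814.5 on day 0 and 170.5 on day 3, which is 4.78-fold lower (log2 -2.26, SD 0.40 and 1.01 pooled). The other probe, mMC015017, read 157.5 and 91.5 and was below the threshold on day 3, so it was at least 1.29-fold lower. The probes shared a direction after normalization. In deposited intensities they did not: mMR030062 read 650 and 227, and mMC015017 read 103 and 124. The median of the 19 genes was -0.17 without Rps19.

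Rps24, another gene mutated in Diamond-Blackfan anaemia, read 4184 and 3192 by its brighter probe (-0.39). Its dim probe read 127 and 49, at least 1.04-fold lower. Rps3, which lines the mRNA entry channel, read 57402.5 and 50604.5 (-0.18) and 39810.5 and 36927 by its other probe (-0.11). Rps9, for which the brightest probe was saturated, was also measured by mMC025454, at 5260.5 and 7853. That probe was 1.49-fold higher, just under the 1.5-fold limit, and it was the only small-subunit probe with a measured difference above 0. Of the 7 small-subunit genes 3 were thus saturated and 1 undetected, and the value for the subunit rests on few genes.

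After quantile normalization, paralogues and the binding partner of Rps19 were lower by the probe that stands for each gene, where they were measured. Rps27l, a paralogue of Rps27 that p53 is known to induce, read 52119 and 32575.5, 1.60-fold lower (-0.68). Its deposited intensities were 44505 and 37253, under saturation on both days. Rps27 itself was saturated, so the gene and its paralogue could not be compared. Rpl7l1, a nucleolar relative of Rpl7, read 11197.5 and 8353.5 by its brighter probe (-0.42). The dimmer probe read 1272 and 1480.5 (0.22). It was the only gene whose measured probes had opposite directions. Rps4y2, listed in the gene table as a synonym of Rps4l, read 160.5 and 110, at least 1.32-fold lower under quantile normalization. Its deposited intensities went the other way, at 106 and 150. Relative to the shift of all genes it was -0.10 with median scaling and -0.17 with no normalization. Rps19bp1 read 9360.5 and 5859.5, 1.60-fold lower (-0.68). Of 3 paralogues with a measured difference, 1 was 1.5-fold lower and 0 higher, beside 21.1% and 24.2% of all genes tested.

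Probes of one gene often differed in size. Above the threshold and under saturation on both days, 2 or more probes were measured for 8 genes, and in 7 of them the probes had the same direction. The median spread between the probes of these genes was 0.45 on the log2 scale, and in 4 of them it was at least 1.5-fold. Over all 27 probes so measured, 9 were above 0 and 18 below (median -0.14). Of the 27, 2 were at least 1.5-fold higher and 5 lower, beside 24.2% and 21.1% of all genes tested, which are counted by gene. Ribosomal protein genes have many processed pseudogenes and close paralogues, and probe sequences were not analysed here, so what else a probe may bind is not known. In the authors' table for the whole series 32 of the 42 probes had a value.

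Related genes of ribosome production were described in the same way. The list of other TOP mRNA genes had 14 genes that were compared, 0 of them 1.5-fold higher and 4 lower (28.6%), beside 24.2% and 21.1% of all genes tested, with a median of -0.36. They were the initiation factor gene Eif4b (6675 and 3824, -0.80), the elongation factor subunit gene Eef1d (29670.5 and 17640.5, -0.75), Naca, part of the nascent polypeptide-associated complex (13652 and 8936.5, -0.61), and the histone chaperone gene Nap1l1 (1144.5 and 754, -0.60). Of the 14 genes, Vim was saturated on day 0, and Eef1g and Eif3f on day 3, so the sizes of their differences were not measured. As read, Vim was 1.47-fold lower and Eif3f 1.22-fold higher. The probe that stands for Eef2, the translocation factor, gave -0.02, but its other probes read 20561 and 8119 (-1.34) and 23925 and 9254.5 (-1.37). The brightest probe of Pabpc1, which binds poly(A) tails, was saturated on both days, and its other probes read 12331.5 and 3932 (-1.65) and 3501 and 982.5 (-1.83). For both genes the count thus depends on which probe is read. With the mean of all probes 7 of 15 genes of this list were 1.5-fold lower (median -0.55). With the brightest unsaturated probe 5 of 12 were (median -0.42), and with no normalization, relative to the shift of all genes, 8 of 14 were. The shares of all genes under these settings are not given here.

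Genes of mTORC1 and the S6 kinases went both ways. Of 16 genes 2 were 1.5-fold higher and 5 lower (31.2%), with a median of -0.12. Of all genes tested 24.2% were higher and 21.1% lower. Mtor, the kinase itself, had signals of 1490.5 and 4660, 3.13-fold higher. Its activator Rheb had 174.5 and 389.5, 2.23-fold higher. Rps6kb1, which encodes the kinase that phosphorylates ribosomal protein S6, had 4132 and 1560, 2.65-fold lower. Eif4ebp2, a translational repressor that mTORC1 inhibits, had 1996 and 778, 2.57-fold lower, and its other probe gave -1.47. These are mRNA levels, and kinase activity was not measured.

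In the list for ribosomal protein gene transcription and rRNA synthesis 6 of 12 genes were 1.5-fold lower, against 21.1% of all genes tested. Of the 12, 0 were higher, against 24.2% (median -0.52, or -0.26 in the authors' table). Polr1b, a subunit of RNA polymerase I, had signals of 300 and 66, at least 2.46-fold lower. Myc, a transcription factor that promotes ribosome production, had 5109.5 and 1264.5, 4.04-fold lower, and its other probe gave -0.63. Ubtf, an activator of ribosomal RNA genes, had 1143 and 386 (-1.57), with -2.48 and 0.01 by its other probes. Taf1c, part of the polymerase I selectivity factor, had 1118.5 and 511.5 (-1.13).

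The import, chaperone and assembly list had the lowest median of the 5 lists, with 11 of 16 genes 1.5-fold lower (68.8%, against 21.1% of all genes tested), 0 higher (against 24.2%) and a median of -0.73. Grwd1, which escorts Rpl3 to the assembling ribosome, had signals of 4479.5 and 752, 5.96-fold lower. Ltv1, a factor of small-subunit maturation, had 1579 and 424.5, 3.72-fold lower. Mrto4, a nucleolar relative of Rplp0 that holds its place on the precursor, had 3295 and 952.5, 3.46-fold lower. Heatr3, which helps to carry Rpl5 into the nucleus, had 5038 and 1591, 3.17-fold lower, with -1.44 and -1.52 by its other probes. These 4 genes were named for having the largest differences in the list. At 2-fold, 5 of the 16 genes were lower, beside 1 of the 19 ribosomal protein genes compared and 10.3% of all genes tested. Whether the lists differ was not tested.

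The ribosome of the mitochondrion, which is encoded by a separate gene family, gave 67 genes with a measured difference. Of these 2 were 1.5-fold higher (2.99%), against 24.2% of all genes tested. A further 17 were lower (25.4%), near the 21.1% of all genes tested, and the median of the 67 was -0.36. The count lower was 16 to 31 over the settings examined, for which the shares of all genes are not given here. The lowest were Mrpl46 (764 and 199, -1.94) and Mrps18b (8106.5 and 2629, -1.62), and Mrpl54 had 3293.5 and 1564 (-1.07). Mrpl57 was the highest (442 and 984, 1.15). Both ribosomes thus had medians below that of all genes, and with quantile normalization most members of both lay within 1.5-fold. The medians of all 5 of these lists were below 0 in each of the 8 settings in which they were computed, relative to all genes where the scale had shifted. These settings are not separate checks. They share the same arrays, and the brightest unsaturated probe moved only the median of the other TOP mRNA genes.

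**Figure D4:**
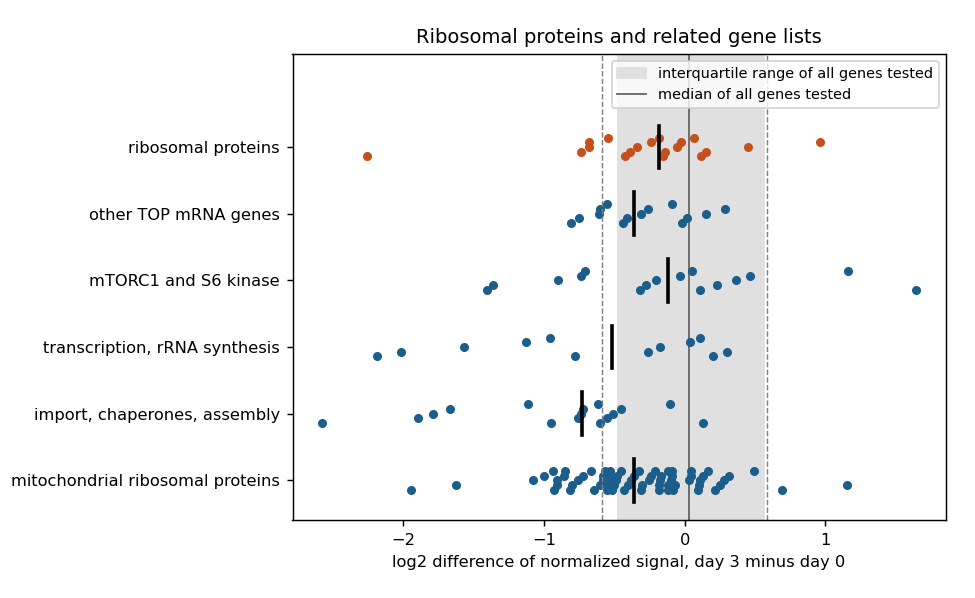
Log2 difference of normalized signal, day 3 minus day 0, for each gene of the ribosomal protein set and of 5 related lists. Each point is a gene, black bars are medians, the grey band is the interquartile range of all genes tested, and dashed lines mark 1.5-fold. The ribosomal protein median is -0.18 and that of the import, chaperone and assembly list is -0.73.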

How the data were processed

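Per the labels' protocols, amplified total RNA was labelled with Cy5 by the array's maker, Phalanx. The deposited per-sample tables hold 1 linear intensity per spot (39200 spots). No source used here gives the scanner, its software or the background method. A deposited table for the whole series holds the authors' intensity values for 11482 gene probes and served as an alternative.

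Gene probes were quantile normalized (limma 3.58.1, R 4.3.3) and taken to log2 with a floor of 10. The method was tested on simulated data in which the day 3 array was brighter by the same factor at every signal. The uneven shift and the larger repeat-spot scatter of these arrays were not simulated, so the test does not cover them. Of several probes, the brightest on average over both days represented a gene. A gene was detected above the median of all gene probes, 122, on at least 1 day, and tested unless its probe was saturated on both days. A fold against a signal below the threshold is a bound, computed against 122. Symbols came from the platform annotation, 1 for 21020 probes and none for 8902. Those of genes outside the rule were updated through a table of GRCm38.p6. Genes were named by rule: members at least 1.5-fold higher or lower, the 5 nearest to 0, paralogues, the dimmest, Rplp0 and Rpsa, and 4 genes of each related list. The other members, and Eef2 and Pabpc1, were named outside it, with their values known. Rps6, Rplp1 and Rplp2 were not analysed here. The members and lists were chosen with earlier results of these data known. With arrays, precision is limited by their number, here 1 per day.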

Additional observations from a re-analysis of the deposited data

How the results depend on the processing

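With quantile normalization the median of the ribosomal protein genes was -0.18, with 1 gene at least 1.5-fold higher and 4 lower. Read against 0, scaling to the median of all gene probes gave -0.81, with 0 higher and 15 lower, 15 in all, where the median of all genes was -0.49. Relative to that shift the median was -0.33, with 1 higher and 5 lower. The shares of all genes past 1.5-fold under the settings other than quantile normalization are not given here. With no normalization the median was 0.28, with 3 higher and 1 lower, where that of all genes was 0.67, and relative to that shift 7 were lower, 8 in all. Relative to the brighter genes, whose shift was 0.46, the median was -0.18 with 1 higher and 4 lower, a setting chosen after seeing the data, as was leaving out Rps19 (-0.17, 1 higher and 3 lower) or Rpl23 (-0.21, 1 and 4). Without the detection filter 2 were higher. The brightest unsaturated probe also gave 2 higher, because Rpl23 was then read from another probe (0.69). With canonical members only, 2 of 15 were lower, 3 in all, because Rps27l and Rps19bp1 were left out. Cyclic loess, the authors' table, an offset of 50, a threshold on both days and the mean of all probes gave medians from -0.18 to -0.15 and 1 gene higher, with 4 or 5 lower. Among single genes, Rps19, Rpl21 and Rplp0 kept their direction and 1.5-fold size in all 10 other alternatives, read relative to the shift of all genes where the scale had one, Rps19bp1 in all 9 that held it, and Rps27l in 8 of 9 (-0.54 under cyclic loess). The detection settings, the brightest unsaturated probe and canonical members only could not move the values of these genes, so they are no separate check. For Rps19bp1 and Rps27l, each with a single probe, neither could the mean of all probes. Rpl14, within 1.5-fold throughout (-0.13 to 0.07), and Rpl23 turned direction in 2 of 10, median scaling and no normalization, both relative to the shift. At 50000 or more, 7 probes counted as saturated. No paired analysis was possible because each day has 1 array and the labels give no replicate numbers.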
